A study of Homo sapiens with 4 samples.

Results

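The chemokines examined here were 9 genes of the CXC and CC families, picked by name: CXCL8, CXCL1, CXCL2, CXCL3, CXCL5, CXCL6, CXCL12, CCL2 and CCL20. They, and the lists of related genes below, were picked with earlier results of these data known. All 9 were among the 37450 features counted. The samples were 143B cells, an established human osteosarcoma line, taken on day 2 after siRNA was delivered with a lipid reagent, and their mRNA was sequenced with a kit that keeps the strand. The siCBX3 group (2 libraries) received siRNA against CBX3, which encodes the chromatin protein HP1γ, and the siNC group (2 libraries) a non-targeting siRNA. Apart from the siRNA, the labels describe both groups as the same line grown in the same serum-containing medium, with siNC called wild type. They do not give the siRNA sequences or how many were used, and do not say that the replicates were separate cultures. The p-values therefore measure the spread between these libraries, which may be technical.

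Chemokines are small secreted proteins that draw cells along a gradient by way of G protein-coupled receptors. CXCL8 (interleukin-8), CXCL1, CXCL2, CXCL3, CXCL5 and CXCL6 carry a Glu-Leu-Arg motif before their first cysteines, act on CXCR2 (CXCL8 and CXCL6 also on CXCR1) and recruit neutrophils. CXCL12 acts on CXCR4 and ACKR3, CCL2 on the monocyte receptor CCR2, and CCL20 on CCR6 of lymphocytes and dendritic cells. Many of these genes are silent at rest and are induced through NF-kB, AP-1 and C/EBP factors, and their mRNAs are kept short-lived by AU-rich elements. Osteosarcoma and other mesenchymal tumour cells are known to secrete CXCL8, CXCL1 and CCL2.

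Library totals were 36509298 and 38717507 counts in siCBX3 and 37318382 and 40336907 in siNC. CBX3 had 2020 and 2163 counts in the siCBX3 libraries, against 20311 and 21384 in the siNC libraries. Levels below are CPM, the count per 1000000 counts of a library after scaling by its TMM factor, which evens out differences in composition between libraries. Of the markers of an osteosarcoma line, VIM averaged 1420 CPM in siCBX3 and 704 CPM in siNC. The osteoblast markers SP7, ALPL and IBSP had between 0 and 4 counts in every library. Others of the 10 markers, among them SPARC, COL1A1 and RUNX2, had enough counts to be tested and are taken up at the end. The 10 markers summed to 3255 and 3167 CPM in the siCBX3 libraries, against 1066 and 1094 CPM in the siNC libraries. Of 17 leukocyte markers in the table, CD68, a lysosomal gene that is not confined to leukocytes, made up 626 CPM in siCBX3 and 413 CPM in siNC. The summed level of the whole list was 662 and 600 CPM in the siCBX3 libraries, against 435 and 401 CPM in the siNC libraries. The pan-leukocyte gene PTPRC had 10 and 4 counts in siCBX3 and 18 and 12 in siNC.

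CXCL8, CXCL1, CXCL2 and CXCL3 rose in siCBX3, and the other tested members, CXCL5 and CCL2, did not pass the test. Of the 9 members 6 passed the filter on low counts, 4 were higher and 0 were lower in siCBX3 (edgeR quasi-likelihood test, Benjamini-Hochberg adjusted p under 0.05 over all tested genes). No tested member was lower at an unadjusted p under 0.05 either, nor by DESeq2 or limma-voom. Among all 20999 genes tested, 24.4% were called higher and 24.0% lower. The median log2 fold change, siCBX3 over siNC, was 3.11 over the 6 tested members and -0.01 over all tested genes. In bulk libraries, more cells carrying an mRNA and more of it per cell cannot be told apart.

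CXCL8, the neutrophil attractant interleukin-8, had the largest fold change of the tested members. It had 6669 and 7086 counts in the siCBX3 libraries, against 120 and 114 in the siNC libraries. These are 189 and 187 CPM in siCBX3, against 3.18 and 2.71 CPM in siNC, with means of 188 ± 1.57 and 2.95 ± 0.339 CPM (SD, n = 2 each). The groups lay far apart beside the spread within each. The mean was 63.9-fold higher in siCBX3 (6.0 on the log2 scale, standard error SE 0.11, adjusted p 1.14e-22 by edgeR), place 15 in the order of all tested genes. CXCL1, first described as a melanoma growth factor, had 2201 and 2022 counts in siCBX3 and 48 and 76 in siNC. That is 62.4 and 53.3 CPM in siCBX3, against 1.27 and 1.80 CPM in siNC. The mean was 37.6-fold higher in siCBX3, with a log2 fold change of 5.22 (SE 0.14, adjusted p 1.29e-19, edgeR).

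CXCL2 and CXCL3, close relatives of CXCL1, rose by less. CXCL2 had 346 and 365 counts in siCBX3, against 59 and 25 in siNC, or 9.82 and 9.63 CPM against 1.57 and 0.593 CPM. The siCBX3 libraries agreed closely and the siNC libraries did not, but the groups did not overlap. The mean was 9.01-fold higher in siCBX3 (3.19 on the log2 scale, SE 0.24, adjusted p 5.09e-11 by edgeR), and the log2 value was 4.03 without siNC replicate 1. CXCL3 had 244 and 266 counts in siCBX3, against 36 and 32 in siNC, or 6.92 and 7.02 CPM against 0.955 and 0.760 CPM. Its mean was 8.13-fold higher in siCBX3 (log2 fold change 3.02, SE 0.21, adjusted p 1.69e-11, edgeR). No test was made of the difference in fold change between the pairs CXCL8 and CXCL1 and CXCL2 and CXCL3.

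**Figure D1:**
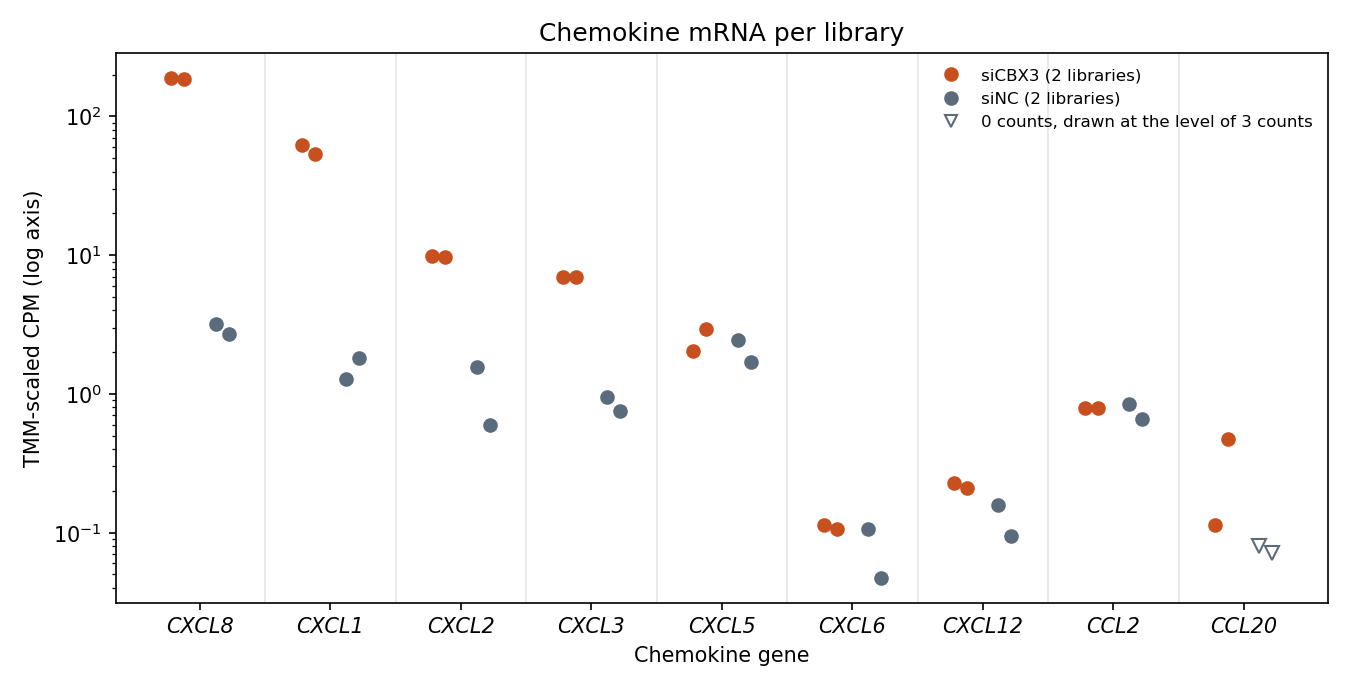
Level of each chemokine mRNA in each library (TMM-scaled CPM on a log axis), with the 2 siCBX3 libraries left of the 2 siNC libraries for every gene and libraries with 0 counts drawn as open triangles at the level of 3 counts. CXCL8, CXCL1, CXCL2 and CXCL3 are separated between groups, while the points of CXCL5 and CCL2 overlap.

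CXCL5, another ligand of CXCR2, showed no such separation. It had 72 and 112 counts in siCBX3, against 92 and 72 in siNC, or 2.04 and 2.96 CPM against 2.44 and 1.71 CPM. The groups overlapped, with a log2 fold change of 0.28 (SE 0.25, adjusted p 0.372, edgeR). CCL2, a monocyte chemoattractant, lies apart from these genes on chromosome 17 (bases 34255218 to 34257203, plus strand) and had 28 and 30 counts in siCBX3, against 32 and 28 in siNC. Its levels were 0.794 and 0.792 CPM in siCBX3 and 0.849 and 0.665 CPM in siNC. On the log2 scale the difference was 0.07 (SE 0.38, adjusted p 0.896, edgeR). With an SE of this size, even a change well above the SE, in either direction, could have gone undetected at this depth.

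**Figure D2:**
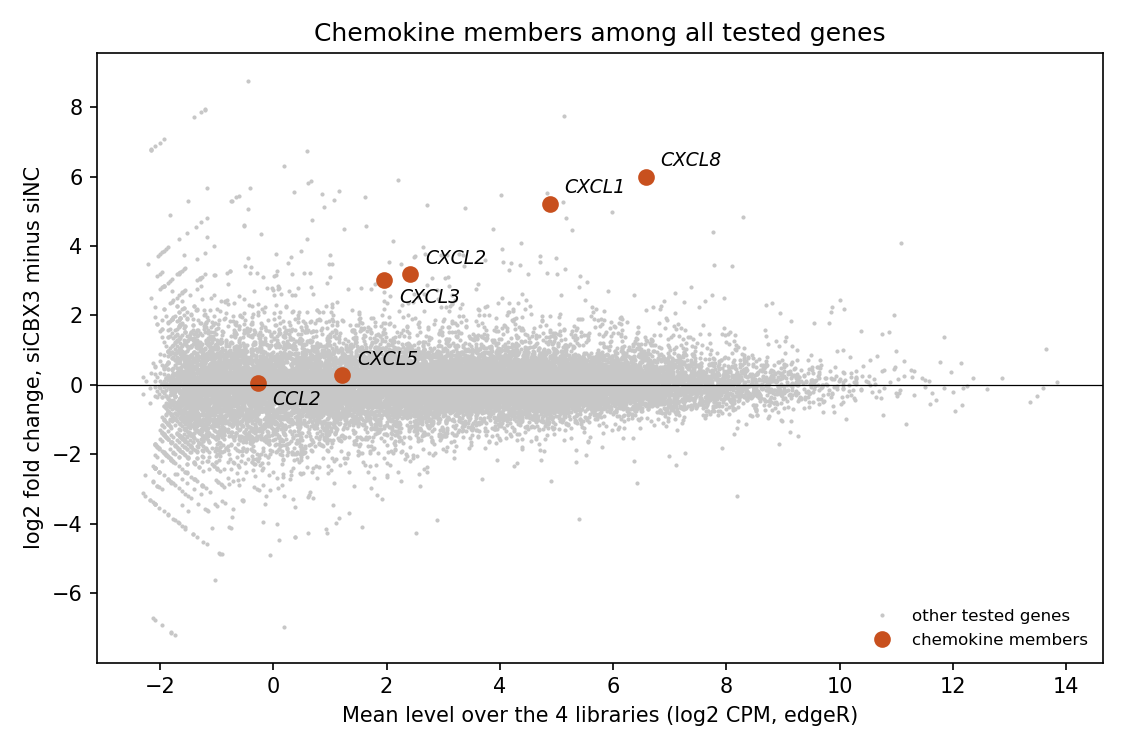
Log2 fold change of every tested gene, siCBX3 minus siNC, against its mean level over the 4 libraries (log2 CPM), with the 6 tested chemokines as large points. CXCL8 (6.0) and CXCL1 (5.22) lie among the topmost genes of their level, and CXCL5 (0.28) and CCL2 (0.07) near the line of no change.

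The 3 members under the count filter were close to undetected. They are CXCL6 in the CXC cluster, CXCL12 on chromosome 10 (bases 44370165 to 44386493, minus strand) and CCL20 on chromosome 2 (bases 227813842 to 227817564, plus strand). CXCL6 had 4 and 4 counts in siCBX3, against 4 and 2 in siNC. CXCL12, the ligand that retains CXCR4-bearing cells in bone marrow, had 8 and 8 counts in siCBX3, against 6 and 4 in siNC. CCL20 had 4 and 18 counts in siCBX3 and 0 in each siNC library, where 3 counts correspond to 0.0796 and 0.0712 CPM. Its mean of 0.294 CPM in siCBX3 was 3.90-fold that floor of 3 counts per siNC library. Most counts come in pairs of reads, so the floor is too low and this fold is no lower bound. The lower siCBX3 library alone stood 1.5-fold above the floor. Fitted without a count filter, CCL20 was called higher (adjusted p 0.00115, edgeR), and CXCL6 (0.837) and CXCL12 (0.63) were not.

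The raised genes lie in 1 cluster on chromosome 4, interleaved with members that stayed low. The 6 members there span 358.8 kb of GRCh38, from base 73740506 at CXCL8 to base 74099293 at CXCL2. In genome order they are CXCL8, CXCL6 and CXCL1 on the plus strand, then the platelet chemokine PPBP, CXCL5, CXCL3 and CXCL2 on the minus strand. CXCL6 lies between CXCL8 and CXCL1, and CXCL5 between CXCL1 and CXCL3. PPBP had 8 and 0 counts in siCBX3, against 2 and 6 in siNC, too few to test.

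No tested gene flanking the cluster was called higher. Within 1000000 bases of it on either side 28 features were counted, of which 13 were tested. Of the 8 tested ones that are no members 0 were higher (edgeR, also at an unadjusted p under 0.05, by DESeq2 and by limma-voom) and 1 was lower. Among all tested genes 24.4% were higher and 24.0% lower, and nothing particular to the flanks is read from counts out of 8. MTHFD2L, a mitochondrial folate enzyme gene next to CXCL2, averaged 5.20 CPM in siCBX3 and 5.07 CPM in siNC (log2 fold change 0.04, SE 0.16). ANKRD17, on the minus strand with its lowest coordinate at -667.1 kb from the start of CXCL8, averaged 99.7 CPM in siCBX3 and 101 CPM in siNC. The EGF-family gene AREG had 40 and 24 counts in siCBX3, against 18 and 24 in siNC (log2 fold change 0.74, SE 0.42, adjusted p 0.154, edgeR). PARM1, 1192.6 kb beyond the start of CXCL8, had 66 and 76 counts in siCBX3, against 278 and 314 in siNC, and fell by 1.93 on the log2 scale (SE 0.18, adjusted p 1.98e-09, edgeR). The remaining 4 tested neighbours, COX18 (-0.43), HMGA1P2 (-0.25), RP11-692D12.1 (-0.58) and RP11-629B11.5 (0.10), did not pass the test.

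**Figure D3:**
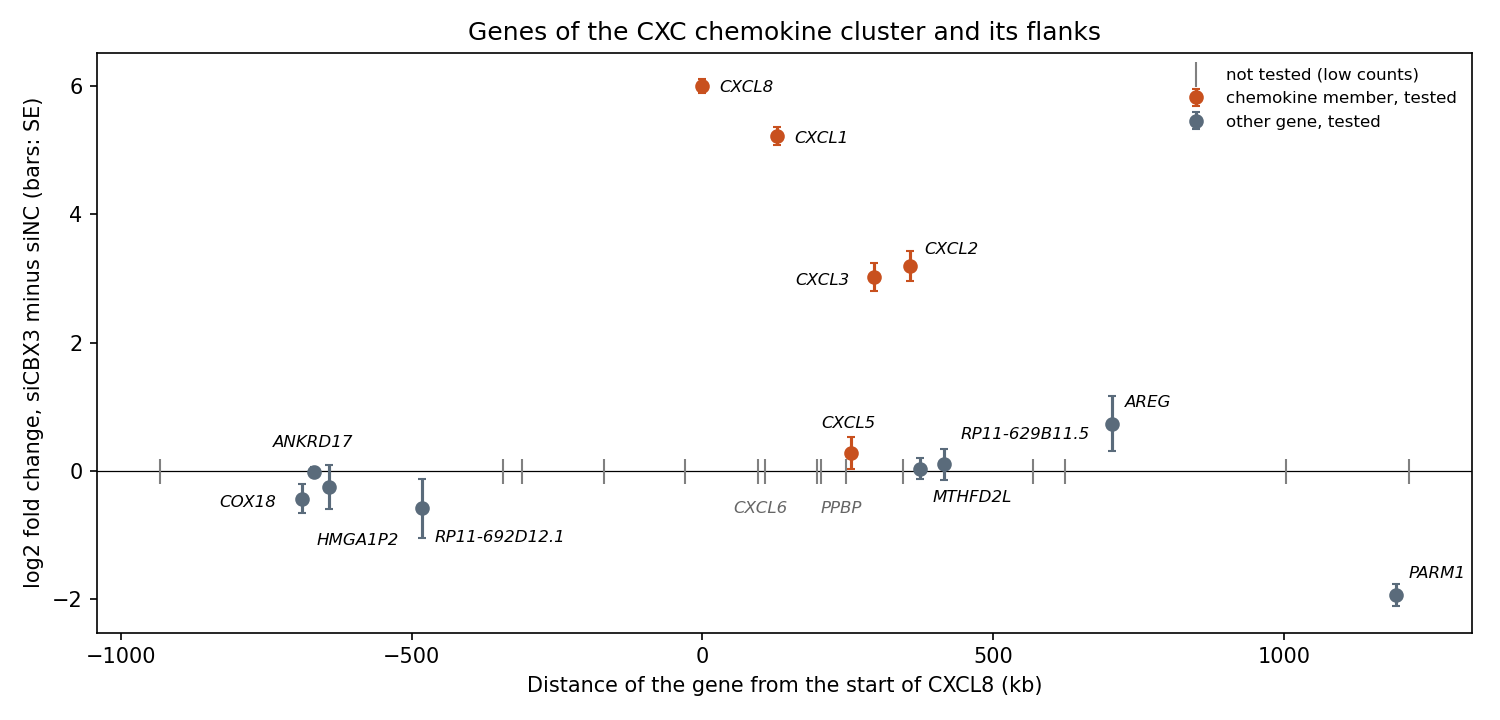
Log2 fold change, siCBX3 minus siNC, of the tested genes within 1000000 bases of the CXC cluster (points, with bars of 1 SE) against their distance in kb from the start of CXCL8, with untested features as grey ticks on the zero line. The 4 raised chemokines stand at 3.02 to 6.0, CXCL5 between them at 0.28, and PARM1 at -1.93.

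The promoters of the raised and of the low genes of the cluster are shown to compare their letters. RefSeq windows from 250 bases before to 50 bases after the start (GRCh38.p14) were found for 8 of the 9 members, not for CCL2. The letters GGAATTTCC, an NF-kB type site, were searched on both strands. They occur in 0.461% of 35116 windows and in 6 of the 8 members' windows, which are the 6 genes of the cluster. The letters are an exact string and several of these windows resemble each other, so no enrichment is read from 6 of 8. Each stretch below runs from base -140 to base 10 counted from the start, 5′ to 3′ on the gene's own strand. Capitals mark GGAATTTCC and, in CXCL8, a match to the AP-1 type letters TGANTCA. CXCL8, CXCL1, CXCL2 and CXCL3 were raised, and CXCL5 and CXCL6 were not called or not tested.
CXCL8 (chr4:73740429-73740578, plus strand): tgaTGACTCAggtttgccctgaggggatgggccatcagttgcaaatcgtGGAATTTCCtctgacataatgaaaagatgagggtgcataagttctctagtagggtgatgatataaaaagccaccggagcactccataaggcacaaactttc
CXCL1 (chr4:73869253-73869402, plus strand): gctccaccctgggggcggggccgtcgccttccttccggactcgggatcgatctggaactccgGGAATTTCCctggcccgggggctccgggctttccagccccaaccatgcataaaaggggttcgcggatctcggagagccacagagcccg
CXCL2 (chr4:74099186-74099335, minus strand): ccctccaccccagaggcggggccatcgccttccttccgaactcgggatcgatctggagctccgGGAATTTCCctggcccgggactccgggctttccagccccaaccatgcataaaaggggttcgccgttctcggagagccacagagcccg
CXCL3 (chr4:74038680-74038829, minus strand): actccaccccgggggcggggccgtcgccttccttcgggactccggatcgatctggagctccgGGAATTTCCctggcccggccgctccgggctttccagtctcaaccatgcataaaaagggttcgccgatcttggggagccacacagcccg
CXCL5 (chr4:73998668-73998817, minus strand): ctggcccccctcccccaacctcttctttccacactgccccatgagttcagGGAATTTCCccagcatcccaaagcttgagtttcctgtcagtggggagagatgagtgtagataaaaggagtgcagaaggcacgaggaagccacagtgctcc
CXCL6 (chr4:73836538-73836687, plus strand): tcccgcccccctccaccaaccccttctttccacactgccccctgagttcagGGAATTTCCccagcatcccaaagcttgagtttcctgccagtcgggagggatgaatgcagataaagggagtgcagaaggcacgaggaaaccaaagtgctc

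The NF-kB type letters stood at position -91 in CXCL8, -78 in CXCL1, -77 in CXCL2, -78 in CXCL3, -90 in CXCL5 and -89 in CXCL6. They were thus in the windows of the 4 raised genes and of CXCL5, which was not called. TGANTCA occurred in CXCL8 at -137 and in no other of the 8 windows, against 7.71% of all windows. The C/EBP type letters TTGCNNAA occurred in CXCL2 at -188 only, outside the stretch shown, against 10.5% of all windows. This pattern is strict: the CXCL8 stretch holds ttgcaaat before GGAATTTCC, which differs from it only in the last letter. The lack of a match therefore does not show that a window has no site of this type. By the degenerate NF-kB consensus, 6 of the 8 windows held a match, those of CXCL1, CXCL2, CXCL3, CXCL5, CXCL6 and CCL20, against 11.3% of all windows. A match is a run of letters and does not show that a factor binds there.

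Across the aligned windows CXCL5 and CXCL6 resembled each other, as did CXCL1, CXCL2 and CXCL3. CXCL5 and CXCL6 were 83.1% identical. CXCL1 was 82.5% identical to CXCL3 and 70.6% to CXCL2, and CXCL2 was 73.7% identical to CXCL3. CXCL8 was 43.0% to 46.6% identical to the other windows of the cluster. Of 45 tested genes that are no members and hold GGAATTTCC in their window, 19 were higher (42.2%) and 13 lower (28.9%) in siCBX3, with a median log2 fold change of 0.24. Over all 11619 tested non-member genes with a window, 27.4% were higher and 28.0% lower, with a median of -0.01.

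The mRNAs of the cluster also share AU-rich 3′ ends, CXCL5 and CXCL6 included. In the longest 3′ UTR annotated by GENCODE 29, the pentamer ATTTA occurred 9 times in CXCL8, 5 in CXCL1, 10 in CXCL2 and 7 in CXCL3. It occurred 11 times in CXCL5 and 6 in CXCL6. Per kb of UTR that is 13.9 in CXCL2, 10.4 in CXCL3, 7.19 in CXCL8, 7.08 in CXCL1, 5.51 in CXCL5 and 5.36 in CXCL6, against a median of 1.59 over 18177 coding genes. CCL20 had 6.24 per kb, CCL2 2.11 and CXCL12 1.27.

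Because exons of CXCL1, CXCL2 and CXCL3 resemble each other, their reads could be exchanged. Of all 75-base stretches of the annotated transcripts, 7.07% in CXCL2 and 4.57% in CXCL3 recur in another gene, CXCL2's in CXCL3 and CXCL1 and CXCL3's in CXCL2. In CXCL1 the share was 0.25%, and in CXCL8, CXCL12, CCL2 and CCL20 no stretch recurs. How the authors treated shared reads was not given in the sources used here, so the split between CXCL2 and CXCL3 is less certain than the values of CXCL8 and CXCL1. No member shares exon bases with another feature of the table on either strand, except CXCL6, which shares 4.31% with the pseudogene PPBPP1.

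The order of the chemokines differed between groups when set per transcript length, as the authors' RPKM. In siCBX3, CXCL8 stood first at 80.3 and 80.5 RPKM and CXCL1 next at 46.5 and 40.3 RPKM. CXCL2 followed at 6.32 and 6.28, CXCL3 at 3.01 and 3.10 and CXCL5 at 0.777 and 1.14 RPKM, and CCL2 at 0.386 and 0.390 RPKM. No neighbours in this order down to CCL2 overlapped. CCL20 (0.0816 and 0.346 RPKM), CXCL6 (0.0502 and 0.0473) and CXCL12 (0.0361 and 0.0340) came last, each without overlap as well.

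In siNC the same genes lay within a narrow band. CXCL8 had 1.41 and 1.24 RPKM, CXCL1 0.992 and 1.45, CXCL5 0.971 and 0.703 and CXCL2 1.05 and 0.413 RPKM. CXCL8 overlapped CXCL1, CXCL2 overlapped CXCL1 and CXCL5, and CXCL3 (0.435 and 0.358) overlapped CXCL2 and CCL2 (0.432 and 0.350). CXCL6 and CXCL12 were at or below 0.0491 RPKM and CCL20 was listed at 0. The summed RPKM of the 9 genes was 138 and 132 in siCBX3, against 5.37 and 4.56 in siNC. CXCL8 made up 58.4% and 60.9% of it in siCBX3, against 26.3% and 27.3% in siNC. CXCL5 made up 0.565% and 0.863% in siCBX3, against 18.1% and 15.4% in siNC.

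**Figure D4:**
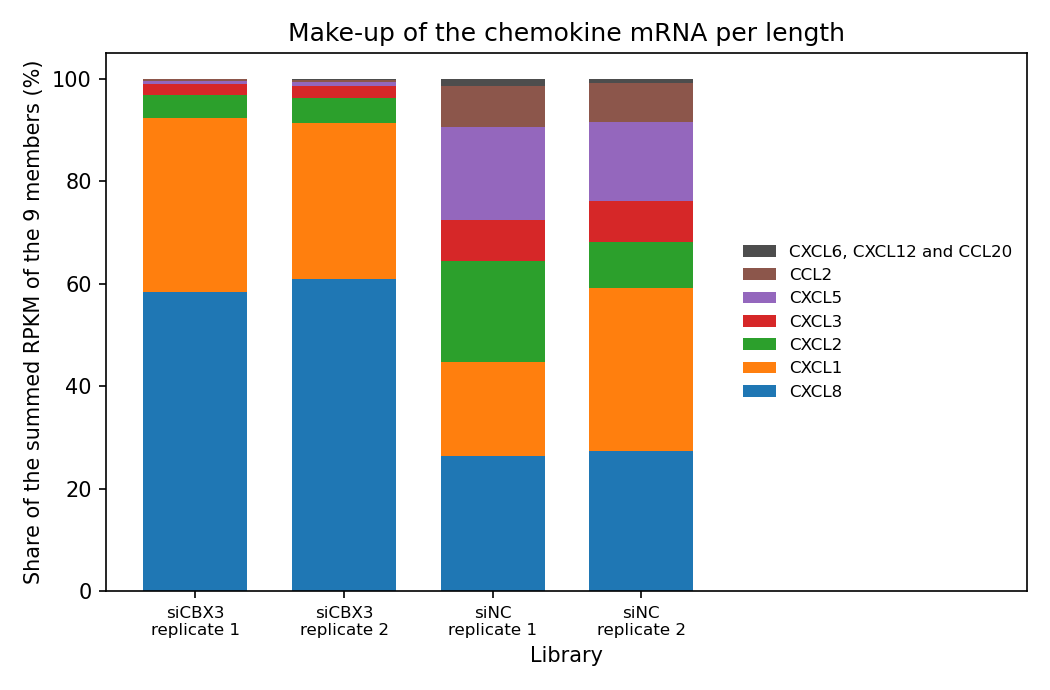
Share of each chemokine in the summed RPKM of the 9 members, as stacked bars for the 2 siCBX3 libraries and the 2 siNC libraries. CXCL8 and CXCL1 fill most of the bars in siCBX3, while CXCL5, CXCL2, CXCL3 and CCL2 hold visible shares in siNC.

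Other chemokine genes were mostly absent. Of 39 listed, 25 were in the table and 6 were tested, of which 3 rose, 1 fell and 2 did not pass the test, where 24.4% of all tested genes were higher and 24.0% lower. The 3 that rose met the count filter through their siCBX3 libraries and would not have met it on siNC alone. Nothing is therefore read from 3 of 6. CXCL16, a transmembrane chemokine that binds CXCR6, had 28 and 35 counts in siCBX3, against 117 and 122 in siNC, and fell by 1.80 on the log2 scale (SE 0.26, adjusted p 3.12e-06, edgeR). Of the interferon-induced ligands of CXCR3, CXCL10 and CXCL11 rose at very low levels, and CXCL9 was not tested, with 0 and 2 counts in siCBX3 and 0 and 0 in siNC. CXCL10 had 12 and 18 counts in siCBX3, against 4 and 0 in siNC (log2 fold change 2.94, adjusted p 0.00542, edgeR). Its call ended without siCBX3 replicate 2 (adjusted p 0.0756) and without siNC replicate 2 (log2 fold change 1.91, adjusted p 0.121), and the value was 6.98 without siNC replicate 1 (range of adjusted p over the alternatives 0.00181 to 0.121, edgeR, DESeq2 or limma).

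CXCL11 had 14 and 26 counts in siCBX3, against 0 and 4 in siNC (log2 fold change 3.37, adjusted p 0.00109, edgeR). The value was 2.48 without siNC replicate 1 and 7.34 without siNC replicate 2, which leaves 0 counts in siNC. CCL5 had 24 and 40 counts in siCBX3, against 0 and 13 in siNC (log2 fold change 2.41, adjusted p 0.00319, edgeR). It was 1.49 without siNC replicate 1 and 8.01 without siNC replicate 2, and DESeq2 did not call it (adjusted p 0.387, over a range of 1.02e-06 to 0.387). CCL28 and CCL21 did not pass the test.

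The receptors of the raised ligands were barely detected in the same cells. CXCR1 had 0 counts in every library, where 3 counts correspond to 0.0851 and 0.0792 CPM in siCBX3 and 0.0796 and 0.0712 CPM in siNC. CXCR2 had 2 and 0 counts in siCBX3 and 0 and 0 in siNC. Of the receptors of members that were not called or not tested, CCR2 (for CCL2) and CCR6 (for CCL20) had at most 2 counts in any library. Of 21 receptor genes counted, 8 were tested, of which 1 rose and 4 fell, with a median log2 fold change of -0.51. Over all tested genes 24.4% were higher and 24.0% lower.

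Among receptors that were expressed, those of CXCL12 were lower. CXCR4 had 56 and 70 counts in siCBX3, against 94 and 116 in siNC (log2 fold change -0.61, SE 0.23, adjusted p 0.0324, edgeR). Its call ended with DESeq2 (adjusted p 0.136), without siCBX3 replicate 1 (0.153) and without siNC replicate 2 (0.139), over a range of 0.0185 to 0.153. ACKR3, a scavenging receptor of CXCL12, had 68 and 44 counts in siCBX3, against 118 and 105 in siNC (log2 fold change -0.87, adjusted p 0.00689, edgeR), and its call ended without siCBX3 replicate 2 (-0.54, adjusted p 0.123, the highest over a range from 0.000247). CCRL2, a non-signalling receptor that binds chemerin, had 6 and 0 counts in siCBX3, against 46 and 34 in siNC.

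CCRL2 had a log2 fold change of -3.56 (adjusted p 8.62e-05, edgeR), which was -8.31 without siCBX3 replicate 1 and -2.54 without siCBX3 replicate 2. DESeq2 did not call it (adjusted p 0.0984, over a range of 3.77e-10 to 0.0984). CCR10, which binds CCL27 and CCL28, had the highest mean RPKM of the tested receptors (11.4 in siCBX3 and 16.0 in siNC). It had 1103 and 1144 counts in siCBX3, against 1634 and 1621 in siNC, and fell by 0.41 on the log2 scale (adjusted p 0.000438, edgeR). CXCR5, the receptor of CXCL13, had 142 and 145 counts in siCBX3, against 75 and 81 in siNC, and rose by 1.00 (adjusted p 0.000235, edgeR). Overlap of these receptor genes with other features was not examined.

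Genes of the routes that induce chemokines moved in both directions, with more called higher than lower in each list below. Among all tested genes 24.4% were higher and 24.0% lower. Of 24 receptors and adaptors of inducing cytokines 22 were tested, 9 rose and 2 fell, with a median log2 fold change of 0.17. The interleukin-1 receptor kinase IRAK2 rose by 3.19 (adjusted p 2.93e-17, edgeR), to 41.1 CPM in siCBX3 against 4.50 CPM in siNC. LTBR rose by 1.05 and TRADD by 1.23, and the lipopolysaccharide receptor TLR4 fell by 1.75 on the log2 scale (adjusted p 4.06e-07, edgeR). Of 22 NF-kB subunits, kinases and inhibitors 12 rose and 3 fell, with a median of 0.50. Those with the smallest p were NFKBIZ (2.58), IKBKE (1.87), TNIP1 (1.41) and TNFAIP3 (1.44). TNFAIP3 and TNIP1 encode inhibitors of NF-kB that are themselves its targets, and NFKBIZ a nuclear cofactor. Of 14 tested AP-1 and C/EBP genes 6 rose and 2 fell, with a median of 0.21, and the smallest p belonged to CEBPD (2.76), JUND (1.66), CEBPB (1.57) and FOSL2 (0.83).

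The 5 other genes nearest to CXCL8 in their centred log2 CPM over the 4 libraries were C8orf4, MMP3, RP1-102K2.8, RP11-277P12.6 and PTGS2, at Euclidean distances of 0.52 to 0.84. C8orf4 had 59.9 and 52.0 CPM in siCBX3, against 1.33 and 1.09 CPM in siNC (log2 fold change 5.53). PTGS2, the inducible cyclooxygenase gene, had 66.5 and 69.3 CPM in siCBX3, against 1.54 and 1.97 CPM in siNC (log2 fold change 5.26). The matrix protease gene MMP3 had 304 and 364 counts in siCBX3, against 8 and 4 in siNC, and was 6.54 in place of 5.89 on the log2 scale without siNC replicate 1. RP1-102K2.8 shares 22.0% of its exon bases with LIF on the opposite strand. RP11-277P12.6 shares 99.2% with KLRC2 and KLRC3, so its 101 and 118 counts in siCBX3, against 2 and 0 in siNC, cannot be assigned to 1 gene, and its log2 fold change of 6.72 was 9.85 without siNC replicate 1 and 5.73 without siNC replicate 2. With 4 libraries in 2 groups, this distance depends mainly on the fold change and on the spread within each group.

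Fold changes of the tested members under other settings are shown for the 4 raised genes and the others alike. All 4 raised members kept their call under each of the 15 alternatives. The lowest values came from log2 of the authors' RPKM plus 1, where the added 1 shrinks the change of low genes: 5.13 for CXCL8, 4.32 for CXCL1, 2.10 for CXCL2 and 1.54 for CXCL3.

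**Figure D5:**
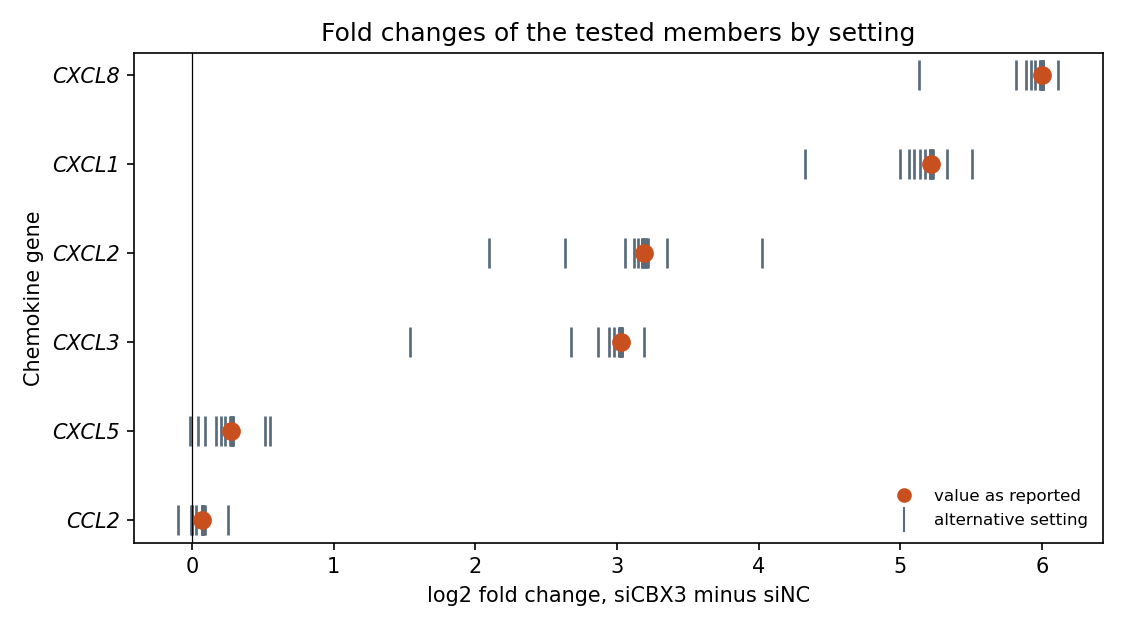
Log2 fold change, siCBX3 minus siNC, of the 6 tested members as reported (points) and under each alternative setting (ticks). The ticks of CXCL8, CXCL1, CXCL2 and CXCL3 all lie above 0, and those of CXCL5 (-0.01 to 0.55) and CCL2 (-0.10 to 0.25) lie on both sides of it.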

How the data were processed

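RNA of 143B cells was profiled in 2 siCBX3 and 2 siNC libraries. The authors deposited raw read counts per gene and RPKM values, with 1 column per library per the file headers. Per the submitters' processing notes, Trimmomatic 0.36, STAR 2.5.3a, featureCounts of Subread 1.5.1 and build GRCh38 were used. The annotation release and the settings for strand and shared reads are not given in the sources used here. Dividing the counts by length and library size returned the deposited RPKM within a relative 3.79e-07. Between 72.3% and 73.2% of counts from 1 to 50 are even, so a count is mostly 1 of a pair of reads, and counting floors, which cover counting error only, are too low.

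Counts were analysed with edgeR 4.0.16 in R 4.3.3: filterByExpr (minimum count 10, total 15) kept 20999 genes, libraries were scaled by TMM, and the quasi-likelihood fit of all 4 libraries had group alone as a term. P-values were adjusted by Benjamini-Hochberg over all tested genes, with a threshold of 0.05. The SE was taken as the size of the log2 value divided by the square root of its F. Lists are given by counts and medians, with no set test. Some called genes of the lists met the filter only through the group where they were higher, among them CXCL10, CXCL11, CCL5, MMP3, TNFAIP6 and CCRL2. Members and lists were chosen with earlier results of these data known. Named genes are the members, CBX3, called chemokines and receptors, up to 4 called genes of each other list with the smallest p, tested genes of the cluster region and the 5 nearest to CXCL8 in log2 CPM (prior count 2). Some of these are left out of the text. Alternatives were DESeq2 1.42.0, limma 3.58.1 (voom, and log2 of RPKM plus 1 or plus 0.1), other scalings and filters, a replicate block, leaving out each library and, chosen after seeing the data, halved counts. On simulated counts for 20479 genes, 50 genes were changed per fold size. The edgeR step recovered 8 of those changed 1.25-fold, 32 at 1.5-fold, 34 at 2-fold and 46 at 4-fold. There were 2 false calls among 122. Far fewer genes were changed there than were called in the data. The simulated spread followed the trend over genes, without scatter of single genes, so these rates need not hold for the data. Sequence counts used Python 3.11.15 and Biopython 1.88.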

Additional observations from a re-analysis of the deposited data

How the results depend on the processing

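Over 15 alternatives, 825 log2 fold changes of 56 named genes were recomputed: 799 kept their direction and side of the threshold (a change of sign of an uncalled gene included), 24 lost the call, 2 gained it and 0 reversed. With all 4 libraries, the number of members called higher was 4, or 5 with no count filter, where CCL20 was called as well, and 0 were called lower. CCL20 also passed the filter without siCBX3 replicate 1, siNC replicate 1 or siNC replicate 2. It did so only through siCBX3, having 0 counts in each siNC library, so it is not read as a further raised member. Over all genes 5132 were higher and 5041 lower, against 4243 and 5917 with library totals, 4299 and 3977 with DESeq2 and 3584 and 5013 on RPKM plus 1. Leaving out 1 library gave 4232 to 5013 higher and 4109 to 4641 lower, where a lone library of a group is assumed to vary like the others. With the replicate number as a block 5371 were higher and 5259 lower, and the 4 members stayed called. The numbers share no stated origin, and same-numbered libraries did not deviate together (correlation 0.03 across genes). No scaling moved the median of all genes by more than 0.1, the lowest being -0.09 with library totals. Among the losses, RUNX2 (0.39, adjusted p 0.0431, edgeR) lost its call under 12 alternatives. The stricter filter left out CCL2, which has no value there. The 28 to 32 counts of CCL2 and the single digits of CXCL6 and CXCL12 limit what could be seen of these genes.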

Other observations

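Genes of a list on the binding, cutting and degradation of chemokines mostly rose in siCBX3. Of 20 tested 13 rose and 4 fell, and their median was 1.03 on the log2 scale, beside 24.4% higher and 24.0% lower among all tested genes. MMP14, a membrane protease that can cut CXCL12, averaged 1402 CPM in siCBX3 and 407 CPM in siNC (1.78 on the log2 scale, SE 0.08, adjusted p 4.17e-15 by edgeR). The lysosomal protease CTSB averaged 796 CPM in siCBX3 and 190.2 CPM in siNC. MMP3 rose by 5.89 (adjusted p 1.03e-14, edgeR). SERPINE2, also in the list, rose by 2.27, but it encodes an inhibitor of serine proteases and not a protein that cuts chemokines. Chosen after their values were seen, the CXCL12-cutting peptidase DPP4 fell by 1.38 on the log2 scale, with 32 and 22 counts in siCBX3 and 78 and 76 in siNC. The CXCL8-binding gene TNFAIP6 had 46 and 44 counts in siCBX3 and 0 and 2 in siNC.

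Regulators of the decay of AU-rich and of stem-loop mRNAs moved in both directions, and nothing particular to them is read from the counts. Of 23 tested 6 rose and 8 fell, with a median of -0.16, beside 24.4% higher and 24.0% lower among all tested genes. ZC3H12A, the RNase Regnase-1 that cuts inflammatory mRNAs, averaged 15.1 CPM in siCBX3 and 2.92 CPM in siNC (2.37 on the log2 scale, SE 0.14, adjusted p 6.79e-13 by edgeR). AUH rose by 0.75 and TIA1 by 0.49, and HNRNPD, which encodes the AU-rich binding protein AUF1, fell by 0.47 on the log2 scale (adjusted p 8.5e-06, edgeR).

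Endothelial markers summed to 12.6 and 14.3 CPM in siCBX3, against 13.8 and 12.8 CPM in siNC. ESAM fell among their 6 tested members, where 24.0% of all tested genes were lower, and EMCN had 0 counts throughout. Epithelial markers summed to 15.4 and 16.6 CPM in siCBX3, against 20.4 and 20.3 CPM in siNC, mostly EPCAM, which fell by 0.51 on the log2 scale. Of 8 tested leukocyte markers CD68 rose (0.60) and CD3D fell, beside 24.4% higher and 24.0% lower among all tested genes. CD3D had 2 and 0 counts in siCBX3, against 10 and 11 in siNC. The CD3D call ended with DESeq2 (adjusted p 0.0812) and without siCBX3 replicate 2 (0.209), and its log2 fold change of -3.12 was -6.39 without siCBX3 replicate 1. Of 7 tested osteosarcoma line markers 4 rose (SPARC, VIM, COL1A1 and RUNX2) and 0 fell, beside 24.4% higher and 24.0% lower among all tested genes. RUNX2 lost its call under 12 of the 15 alternatives, and COL1A1 on RPKM plus 1 (adjusted p 0.0787, limma) and RPKM plus 0.1 (0.0857). Whether the share of any cell type bears on the chemokine levels was not tested.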
